A study of Homo sapiens with 12 samples.

Results

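Desmosomes are the junctions that tie the keratin cytoskeletons of neighbouring epithelial cells together, and 10 of their genes were followed here through 12 RNA-seq libraries: DSP, DSC2, DSC3, DSG2, PKP1, PKP2, PKP3, JUP, PPL and EVPL. They are 10 of the 38611 genes in each deposited table. They were chosen by name as desmosomal components, with the counts of these libraries and the changes between the groups already known. Their changes are therefore given as a description, with a standard error and the share of all genes called the same way beside each count, and the choice lends them no support.

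The libraries came from DU145 and PC3, established human prostate cancer cell lines derived from a brain and a bone metastasis. Each line was sequenced as the parental line, labelled control, and as a subline made resistant to docetaxel, a taxane that stabilises microtubules and blocks cell division, with 3 libraries in each of the 4 groups. For DU145 the starting concentration was labelled 10 and the half-maximal inhibitory concentration reached was labelled 1800, and for PC3 these were 0.5 and 15, all in a unit written nm/ml whose meaning is not given. Per the labels the dose was raised in steps, and they name no clones and do not say whether docetaxel was present when RNA was taken. Each resistant group is thus a single selected subline, set against its own parental line. Nothing in them tells whether a group's 3 libraries were grown as separate cultures. A p-value here therefore reflects only how these libraries scatter, and that scatter may be technical.

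In a desmosome, the cadherins desmoglein and desmocollin span the gap between cells. Inside the cell their tails bind the armadillo proteins plakoglobin, encoded by JUP, and the plakophilins, and these bind desmoplakin, encoded by DSP, which anchors the keratin filaments. Periplakin and envoplakin, encoded by PPL and EVPL, are plakins of the same family found at desmosomes and in the cornified envelope of stratified epithelia. Desmoglein 2 and desmocollin 2 are the cadherins of simple epithelia such as the glandular prostate, while desmocollin 3 and plakophilin 1 are best known from stratified epithelia and basal cells.

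The members are spread over 7 chromosomes, and only the cadherins lie together. The files place DSP (ENSG00000096696) at chr6:7541617-7586714 and, within a stretch of chromosome 18, DSC3 (ENSG00000134762) at chr18:30989365-31042815, DSC2 (ENSG00000134755) at chr18:31058840-31102421 and DSG2 (ENSG00000046604) at chr18:31498177-31549008. PKP1 (ENSG00000081277) is at chr1:201283452-201332993, PKP2 (ENSG00000057294) at chr12:32790755-32896777 and PKP3 (ENSG00000184363) at chr11:392614-400260. JUP (ENSG00000173801) is at chr17:41754604-41786931, PPL (ENSG00000118898) at chr16:4882507-4937148 and EVPL (ENSG00000167880) at chr17:76004502-76027306. These coordinates are those of GRCh38.

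The upstream sequences of DSP, DSG2, DSC2 and DSC3 are shown because DSP, DSC3 and DSC2 had the largest changes in DU145 and DSG2 is the remaining cadherin of the set. They let a reader see which letters recognised by the factors listed further on lie before each gene. Each stretch is from RefSeq, build GRCh38.p14, reads 5' to 3' on the gene's strand, and ends where the gene starts in the files. Capitals mark CACCTG, the E-box bound by ZEB and SNAIL repressors, and GGGCGG, the box bound by SP and KLF factors, on either strand. The DSP stretch is chr6:7541421-7541616 on the plus strand and the DSG2 stretch is chr18:31497927-31498176 on the plus strand. The DSC2 stretch is chr18:31102422-31102671 and the DSC3 stretch chr18:31042816-31042992, both on the minus strand.
DSP: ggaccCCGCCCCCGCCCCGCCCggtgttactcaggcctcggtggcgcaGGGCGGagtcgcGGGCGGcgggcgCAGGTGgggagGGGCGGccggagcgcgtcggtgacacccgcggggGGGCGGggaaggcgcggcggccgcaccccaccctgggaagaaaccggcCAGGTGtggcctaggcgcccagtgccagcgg
DSG2: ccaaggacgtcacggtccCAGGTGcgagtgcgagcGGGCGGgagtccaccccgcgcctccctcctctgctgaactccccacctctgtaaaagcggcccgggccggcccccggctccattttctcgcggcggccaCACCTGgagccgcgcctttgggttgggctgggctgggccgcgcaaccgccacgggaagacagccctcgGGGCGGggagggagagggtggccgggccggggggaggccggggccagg
DSC2: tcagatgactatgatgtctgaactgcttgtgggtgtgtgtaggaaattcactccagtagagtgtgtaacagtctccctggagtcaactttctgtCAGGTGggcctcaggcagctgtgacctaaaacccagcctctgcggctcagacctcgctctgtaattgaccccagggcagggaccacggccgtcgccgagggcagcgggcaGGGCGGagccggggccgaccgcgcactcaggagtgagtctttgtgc
DSC3: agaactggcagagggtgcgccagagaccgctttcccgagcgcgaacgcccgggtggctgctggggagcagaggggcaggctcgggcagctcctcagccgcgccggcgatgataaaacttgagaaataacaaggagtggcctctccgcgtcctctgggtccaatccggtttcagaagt

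The 250 bases before a RefSeq start were searched for 4 motifs on both strands, in 8 windows of 6 members (DSP, DSC3, DSG2 and PKP1 with 1 each, DSC2 and JUP with 2 each), since PKP2, PKP3, PPL and EVPL had no entry. Distances are to the RefSeq start, which for DSP lies 54 bases beyond the end of the stretch shown. The E-box CACCTG was found 2 times before DSP, 178 and 85 bases upstream of that start, and 2 times before DSG2, at 232 and 116 bases. It was found 1 time in a DSC2 window, at 156 bases, and 2 times in 1 of the JUP windows, at 54 and 43 bases. The windows of DSC3 and PKP1, the other DSC2 window and the other JUP window had none. Of all 35116 windows of this length, 17.5% held an E-box. GGGCGG was found 7 times before DSP, 2 times before DSG2, 1 time before PKP1, and 1 and 2 times in the DSC2 windows. It was found 2 times in 1 of the JUP windows, and not in the other or before DSC3. Of all windows, 42.6% held it. The grainyhead core ACCGGTT, in 0.626% of all windows, and the AP-1 motif TGAGTCA or its reverse TGACTCA, in 4.2%, were in none of the 8. By base composition, the DSP window was 78% G and C with 33 CpG pairs, and the DSG2 window was 75.2% with 26. The windows of the other members ranged from 59.6% to 67.6%, with 12 to 19 pairs. The medians over all windows were 58% and 11 pairs. A match is only a string of letters, and no binding was measured.

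The libraries held between 62513103 and 72530254 counts. At mean counts of 5 to 10, the variance within a group was on average 7.72 to 8.49 times as large as the mean. Low counts thus carry more error than their size implies, and the source of this extra spread was not tested. By chi-square divided by the number of genes, library 1 of resistant PC3 stood apart within its group. This value was 33.8 and 33.9 for its pairs and 16.7 for the remaining pair. By mean absolute difference in log2 CPM, library 1 did not stand apart. That difference was 0.181 and 0.175 for its pairs and 0.176 for the remaining pair. Results in PC3 are given without library 1 where they differ. Mitochondrial genes took 4.11% ± 0.173 (SD, n = 3) of counts in parental DU145 and 7.08% ± 0.0529 in resistant DU145, and 5.82% ± 0.197 in parental PC3 and 3.50% ± 0.0425 in resistant PC3. This share was higher in resistant DU145 and lower in resistant PC3, and its part in the members' changes was not tested.

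Levels of different genes were compared in FPKM, a value scaled to gene length and library size, since it allows for gene length. In DU145 the sum of the 10 members was 56.8 ± 0.862 FPKM (SD, n = 3) in parental and 117 ± 1.69 in resistant cells, and in PC3 it was 165 ± 3.75 and 225 ± 1.58. DSG2, the most widely expressed desmoglein, was the most abundant member in DU145, at 27.7 ± 0.979 FPKM in parental and 63.2 ± 3.13 in resistant cells. In PC3 it was PKP1, at 72.9 ± 1.56 FPKM in parental and 150.5 ± 1.04 in resistant cells, or 44.1% and 67.0% of the summed level. The share of DSG2 in DU145 was 48.7% in parental and 54.1% in resistant cells. The most abundant member thus differed between the 2 lines.

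Parental DU145 expressed mainly DSG2, PKP3 and EVPL, and almost no desmoplakin RNA. After DSG2 came PKP3 at 12.4 ± 0.658 FPKM, EVPL at 8.54 ± 0.500, PPL at 3.51 ± 0.176 and JUP at 2.51 ± 0.139. PKP1 at 0.891 ± 0.212, DSC2 at 0.561 ± 0.0613 and PKP2 at 0.547 ± 0.10 followed, and DSP at 0.0642 ± 0.0307 and DSC3 at 0.0571 ± 0.0240 were lowest. The libraries of DSC2 and PKP2 overlapped, as did those of DSP and DSC3, and all other neighbours in this order were separate. In resistant DU145 DSP stood second, at 14.5 ± 0.438 FPKM. PKP3 at 10.98 ± 0.281, EVPL at 8.29 ± 0.145, JUP at 6.55 ± 1.02 and DSC2 at 4.96 ± 0.0568 came next, and DSC3 was last again, at 1.41 ± 0.165, overlapping PKP2 at 1.61 ± 0.0294.

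In parental PC3 the order below PKP1 was JUP at 19.9 ± 2.22 FPKM and DSC3 at 19.2 ± 0.472, which overlapped. DSG2 at 14.2 ± 0.868 FPKM, DSC2 at 12.6 ± 0.711 and PKP3 at 10.4 ± 0.551 followed, and DSP was last at 0.806 ± 0.0688. DSP was last in resistant PC3 too, at 0.146 ± 0.0240 FPKM. There DSG2 stood second, at 17.7 ± 0.886 FPKM, and DSC3 at 14.4 ± 1.0 and PKP3 at 14.3 ± 1.40 overlapped, as did PKP2 at 3.19 ± 0.0856 and PPL at 3.12 ± 0.239. Desmoplakin RNA was therefore among the 2 lowest members in 3 of the 4 groups, and second highest in resistant DU145.

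**Figure D1:**
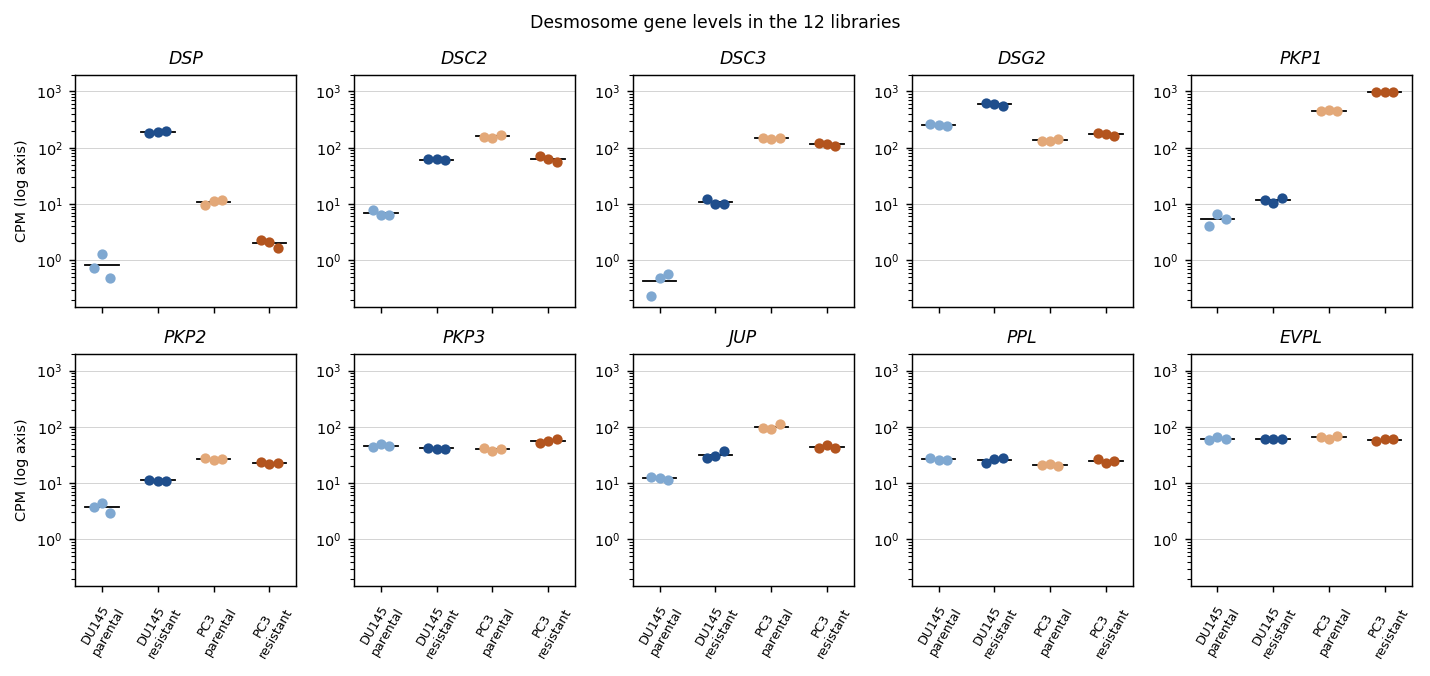
CPM (library-size-scaled counts, log axis) of the 10 desmosome genes in the 12 libraries, 1 panel per gene; points are libraries and lines the mean of 3. DSP goes from 0.835 CPM in parental to 191 CPM in resistant DU145, while PPL and EVPL lie nearly level across the 4 groups.

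The question behind the main comparison is which genes differ between docetaxel-resistant and parental cells of each line. Changes were tested on the counts with edgeR's quasi-likelihood test over 24128 genes, and a gene was called when its Benjamini-Hochberg adjusted p was under 0.05. Each change is a log2 ratio with its standard error (SE), and levels across libraries are CPM, counts per 1000000 after edgeR's TMM scaling. In bulk RNA, fewer cells expressing a gene and less RNA per cell cannot be told apart. The plot of CPM by library shows every value used.

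In DU145, 7 of the 10 members were called higher in resistant cells and none lower, where 18.9% of all tested genes were called higher and 20.7% lower. The 7 cover each layer of the junction: the cadherins DSG2, DSC2 and DSC3, the armadillo proteins JUP, PKP1 and PKP2, and DSP. The median change over the 10 members was 1.31, and over all tested genes it was 0.00. PKP3, PPL and EVPL were not called. In PC3, 4 members were called higher (DSG2, PKP1, PKP3 and PPL) and 4 lower (DSP, DSC2, DSC3 and JUP), against 22.4% and 21.6% of all tested genes. The median over the members was -0.19 there, and over all tested genes 0.00. Over 21 alternative analyses, 3 to 4 members were called higher and 4 to 6 lower in PC3, and the PPL call held in only 3 of them. With upper-quartile scaling or library totals alone, 3 members were called higher and 5 lower in PC3, and without library 1 of resistant PC3 these counts were 3 and 4.

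**Figure D2:**
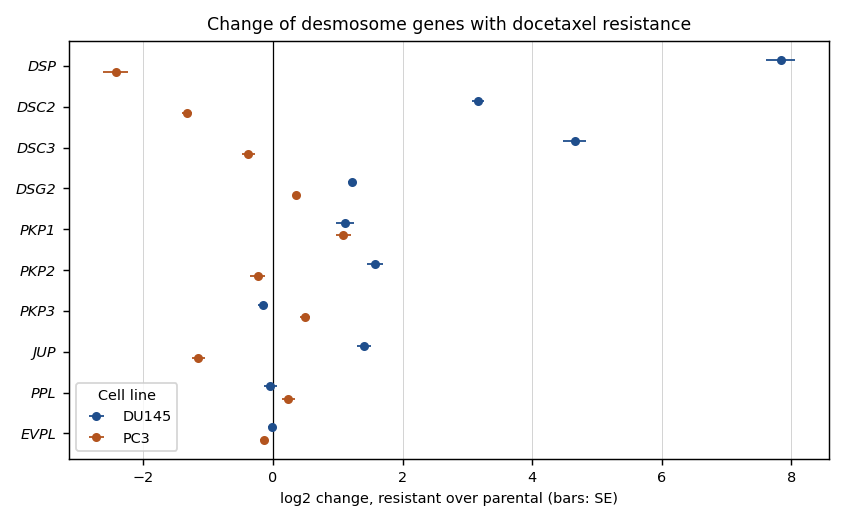
Log2 change of each desmosome gene, resistant over parental, in DU145 (blue) and PC3 (orange); points are edgeR estimates and bars their SE. DSP, DSC2, DSC3 and JUP lie on opposite sides of 0 in the 2 lines, and PKP1 lies at 1.11 and 1.08.

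DSP encodes desmoplakin, the link between the junction and keratin. Its level in parental DU145 was 0.737, 1.28 and 0.492 CPM in libraries 1 to 3, from 51, 85 and 32 counts, and in resistant DU145 186, 191 and 196 CPM. The groups were far apart, with no parental library above 1.28 CPM. The log2 change was 7.83 ± 0.22 (SE), or 228-fold, and by size DSP ranked 162 among the 24128 genes tested. In PC3 the direction was opposite: 9.71, 11.2 and 11.5 CPM in the parental libraries against 2.32, 2.07 and 1.65 CPM in the resistant ones. The libraries of the groups did not overlap, and the log2 change was -2.43 ± 0.19, or 5.38-fold lower.

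DSC2 encodes desmocollin 2, the desmocollin of simple epithelia. It was at 7.77, 6.31 and 6.43 CPM in parental DU145 and 61.9, 61.9 and 60.6 CPM in resistant DU145, a log2 change of 3.17 ± 0.09. In PC3 it was at 154, 152 and 169 CPM in parental and 69.9, 63.4 and 56.4 CPM in resistant cells, a log2 change of -1.32 ± 0.08. Neither pair of groups overlapped. The changes brought the resistant lines to like levels, with means of 61.5 ± 0.748 CPM in DU145 and 63.2 ± 6.73 CPM in PC3 (SD, n = 3). The log2 difference between the resistant lines was 0.04 ± 0.08, with an edgeR adjusted p of 0.702, where the parental lines differed by 4.53 ± 0.10.

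DSC3 encodes desmocollin 3, a cadherin of basal cells. It was near the floor of detection in parental DU145, at 0.231, 0.481 and 0.569 CPM from 16, 32 and 37 counts, and at 12.2, 10.2 and 9.79 CPM in resistant DU145. The log2 change was 4.66 ± 0.17, but the level reached was 10.7 ± 1.32 CPM, far below the 148 ± 3.67 CPM of parental PC3. In PC3 the libraries were at 150, 144 and 151 CPM in parental and 122, 115 and 105 CPM in resistant cells. They did not overlap, and the change was small, at -0.38 ± 0.10.

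DSG2, which encodes desmoglein 2, was the only desmosomal cadherin among the members called higher in both resistant lines. It was at 269, 251 and 248 CPM in parental DU145 and 618, 604 and 559 CPM in resistant DU145, a log2 change of 1.21 ± 0.06. The PC3 libraries were at 129, 131 and 145 CPM in parental and 181, 177 and 163 CPM in resistant cells. The PC3 groups did not overlap either, with a change of 0.36 ± 0.06. DSG2 overlaps the antisense gene DSG2-AS1, which had 345 counts over all libraries against 229649 for DSG2, and DSC2 overlaps DSCAS, with 143 against 57110.

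The mixture of cadherins differed between the lines more than their sum. Summed over DSG2, DSC2 and DSC3, the level was 28.3 ± 1.02 FPKM in parental and 69.5 ± 3.30 in resistant DU145, and 45.9 ± 1.86 in parental and 37.0 ± 2.36 in resistant PC3 (SD, n = 3). DSG2 made up 97.8% of that sum in parental DU145 and 90.8% in resistant DU145, and 30.8% in parental PC3 and 48.0% in resistant PC3. The desmoglein share thus went down in the subline of DU145 and up in that of PC3. The ratio of DSG2 to DSC2 in FPKM was 45.6 to 52.3 over the parental DU145 libraries and 12.1 to 13.2 over the resistant ones, and 1.10 to 1.14 and 3.41 to 3.81 in PC3. Among desmocollins, DSC3 took 9.39% ± 4.22 in parental and 22.1% ± 1.95 in resistant DU145, and 60.4% ± 1.05 and 74.6% ± 0.606 in PC3, so its share was higher in the resistant libraries of both lines.

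**Figure D3:**
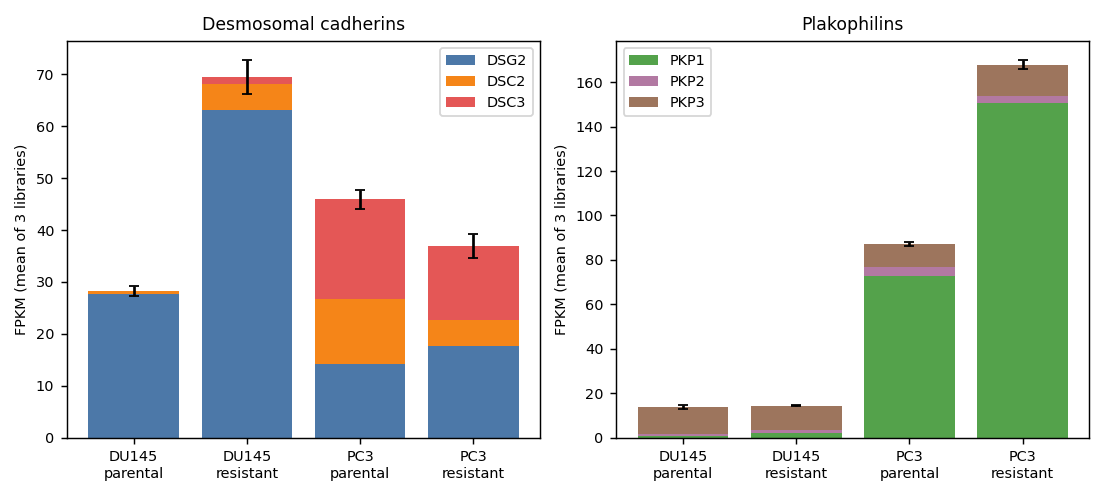
Mean FPKM of the desmosomal cadherins (left) and the plakophilins (right) in the 4 groups, stacked by gene; error bars are the SD of the summed level over 3 libraries. DSG2 makes up nearly all cadherin RNA of DU145, and PKP1 most plakophilin RNA of PC3.

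JUP encodes plakoglobin, the armadillo protein shared by desmosomes and adherens junctions. It was at 12.9, 12.1 and 11.3 CPM in parental DU145 and 28.1, 30.6 and 37.5 CPM in resistant DU145, a log2 change of 1.41 ± 0.11. PC3 had 94.2, 90.4 and 112 CPM in parental and 42.7, 48.4 and 42.6 CPM in resistant cells, a change of -1.15 ± 0.11. The groups did not overlap in either line. Because JUP and DSP moved by different amounts, the ratio of JUP to DSP in FPKM shifted: it was 25.6 to 61.8 over the parental and 0.407 to 0.517 over the resistant DU145 libraries, and 21.8 to 26.2 and 49.7 to 69.8 over those of PC3. Resistant DU145 was the only group with more desmoplakin than plakoglobin RNA per length.

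PKP1 encodes plakophilin 1, which strengthens desmosomes in stratified epithelia. It was at 4.13, 6.66 and 5.37 CPM in parental and 11.6, 10.2 and 13.0 CPM in resistant DU145, and at 447, 467 and 452 CPM in parental and 965, 966 and 965 CPM in resistant PC3. No groups overlapped. The log2 changes were 1.11 ± 0.14 in DU145 and 1.08 ± 0.12 in PC3, and their difference, PC3 minus DU145, was -0.02 ± 0.18 (edgeR adjusted p = 0.975). PC3 held far more of it than DU145 before and after selection, by 6.40 ± 0.15 between the parental lines and 6.38 ± 0.15 between the resistant ones.

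PKP2 encodes the most widely expressed plakophilin. It was at 3.77, 4.39 and 2.98 CPM in parental and 11.4, 11.1 and 10.9 CPM in resistant DU145, a log2 change of 1.58 ± 0.13. PC3 had 28.3, 25.6 and 27.2 CPM in parental and 23.7, 22.2 and 23.0 CPM in resistant cells. Those PC3 libraries did not overlap, but the change of -0.23 ± 0.12 was not called (edgeR adjusted p = 0.126), although 3 of 21 alternatives called it, with adjusted p from 0.0152 to 0.0285. PKP3, the plakophilin of most simple and stratified epithelia, was at 44.3, 48.7 and 44.9 CPM in parental and 42.7, 40.8 and 40.3 CPM in resistant DU145, a change of -0.15 ± 0.07 that was not called (adjusted p = 0.116). The PC3 values were 41.1, 37.4 and 40.8 CPM in parental and 51.3, 54.7 and 61.6 CPM in resistant cells, a change of 0.49 ± 0.07. Its groups did not overlap in either line.

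The summed plakophilin level was 13.9 ± 0.928 FPKM in parental and 14.5 ± 0.304 in resistant DU145, and 87.2 ± 0.840 in parental and 167.9 ± 2.19 in resistant PC3 (SD, n = 3). PKP3 took 89.7% ± 1.24 of that sum in parental DU145 and 75.9% ± 1.28 in resistant DU145. PKP1 took 83.6% ± 0.998 in parental PC3 and 89.6% ± 0.701 in resistant PC3. The resistant DU145 libraries, from 14.2 to 14.8 FPKM, lay within the range of the parental ones, from 13.1 to 14.9 FPKM. The stacked bars of FPKM show both this and the PKP1 excess of PC3.

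PPL and EVPL, the periplakin and envoplakin genes, moved least in DU145. In PC3 EVPL moved least, and PPL changed about as much as PKP2. PPL was at 28.1, 25.2 and 25.6 CPM in parental and 22.9, 26.5 and 27.5 CPM in resistant DU145, groups that overlapped, with a change of -0.04 ± 0.09 (edgeR adjusted p = 0.829). In PC3 it was at 21.2, 21.8 and 20.1 CPM in parental and 27.0, 22.9 and 24.6 CPM in resistant cells. Its change there, 0.24 ± 0.09, passed at an adjusted p of 0.0493, but was not called in 18 of 21 alternative analyses, nor with any 1 library left out except resistant PC3 library 2. Without library 1 of resistant PC3 the adjusted p was 0.244, the largest of these. EVPL was at 58.2, 64.8 and 60.7 CPM in parental and 59.6, 60.8 and 60.9 CPM in resistant DU145, and at 65.6, 61.6 and 68.3 CPM in parental and 56.6, 60.8 and 60.3 CPM in resistant PC3. Its changes were -0.02 ± 0.06 (adjusted p = 0.857) and -0.14 ± 0.06 (adjusted p = 0.0643), and the second was called in 6 of 21 alternatives (adjusted p from 0.0226 to 0.0479). EVPL overlaps CDK3 and the readthrough gene TEN1-CDK3 on the other strand, with 1032 and 16788 counts against 48821 for EVPL, so part of its counts is uncertain.

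Whether the changes differed between the lines was tested as the change in PC3 minus the change in DU145. It was called lower for 6 members and higher for 1, where 20% of all tested genes were called lower and 22.1% higher. The differences were -10.26 ± 0.29 (SE) for DSP, -5.03 ± 0.21 for DSC3 and -4.49 ± 0.12 for DSC2. They were -2.55 ± 0.15 for JUP, -1.81 ± 0.17 for PKP2 and -0.85 ± 0.08 for DSG2. PKP3 had the only difference called higher, 0.65 ± 0.10. The differences of PPL, 0.28 ± 0.13 (edgeR adjusted p = 0.110), EVPL, -0.12 ± 0.08 (0.275), and PKP1 were not called. The sign of the larger ones came from DSP, DSC2, DSC3 and JUP moving in opposite directions, and for DSG2 from a larger increase in DU145.

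Between the parental lines, 6 members were called higher in PC3 than in DU145 and 3 lower, against 30.9% and 29.5% of all tested genes. The log2 differences, PC3 over DU145, were 8.44 ± 0.17 (SE) for DSC3, 6.40 ± 0.15 for PKP1, 4.53 ± 0.10 for DSC2 and 3.69 ± 0.21 for DSP. JUP and PKP2 differed by 3.03 ± 0.11 and 2.86 ± 0.13. DSG2 was lower in PC3, by -0.92 ± 0.06, as were PPL, by -0.32 ± 0.09, and PKP3, by -0.21 ± 0.07. The PKP3 call was lost without library 2 of parental DU145 (edgeR adjusted p = 0.0992) or library 2 of parental PC3 (adjusted p = 0.0952). EVPL differed by 0.09 ± 0.06 (adjusted p = 0.197).

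Between the resistant lines, 5 members were called higher in PC3 and 2 lower, against 30.6% and 29.1% of all tested genes. DSP now lay 6.57 ± 0.20 (SE) lower on the log2 scale in PC3, or 95.0-fold, where in the parental lines it had been 12.9-fold higher. DSG2 was lower too, at -1.77 ± 0.06. PKP1 was higher by 6.38 ± 0.15, DSC3 by 3.41 ± 0.12, PKP2 by 1.05 ± 0.12, JUP by 0.48 ± 0.11 and PKP3 by 0.44 ± 0.07. DSC2, PPL and EVPL were not called, with adjusted p of 0.702, 0.708 and 0.694. These comparisons share their libraries with those of resistance, so the same values enter both.

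The 3 cadherin members lie in the desmosomal cadherin cluster, where desmocollin and desmoglein genes stand side by side. Of 35 genes in the files within 1 Mb of that stretch, 32 were not members and 12 of these were expressed enough to be tested. In DU145, 4 of the 12 were called higher and 1 lower, where 18.9% of all tested genes were called higher and 20.7% lower. In PC3, 3 were called higher and 5 lower, against 22.4% and 21.6% of all tested genes. The cadherins DSC1, DSG1 and DSG4 of the same cluster, known from stratified epithelia, were too low to test, with 34, 23 and 60 counts over all libraries. DSG3 was tested with 87 counts and not called. B4GALT6, a galactosyltransferase gene whose start lies 641.9 kb from that of DSC3, was at 26.6 ± 0.943 CPM in parental and 62.8 ± 4.11 in resistant DU145, and at 55.5 ± 4.33 in parental and 22.2 ± 0.927 in resistant PC3 (SD, n = 3). Its log2 changes were 1.24 ± 0.07 and -1.32 ± 0.08, the same directions as DSC2. RNF125, a ubiquitin ligase gene 976 kb away, changed by 0.87 ± 0.16 and -1.10 ± 0.16, while RNF138, at 1049.1 kb, changed by 0.24 ± 0.09 in DU145, a call lost in 8 of 21 alternatives (adjusted p up to 0.158), and by 1.0 ± 0.09 in PC3. TRAPPC8 was called higher in both lines, by 0.51 ± 0.07 and 0.20 ± 0.07 (edgeR adjusted p = 0.0356 in PC3). LRRC37A7P, at no more than 2.98 CPM on average, was called lower in both, with -3.28 ± 0.93 and -2.76 ± 0.83. Opposite changes in the 2 lines were thus seen in some neighbours and not in others.

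**Figure D4:**
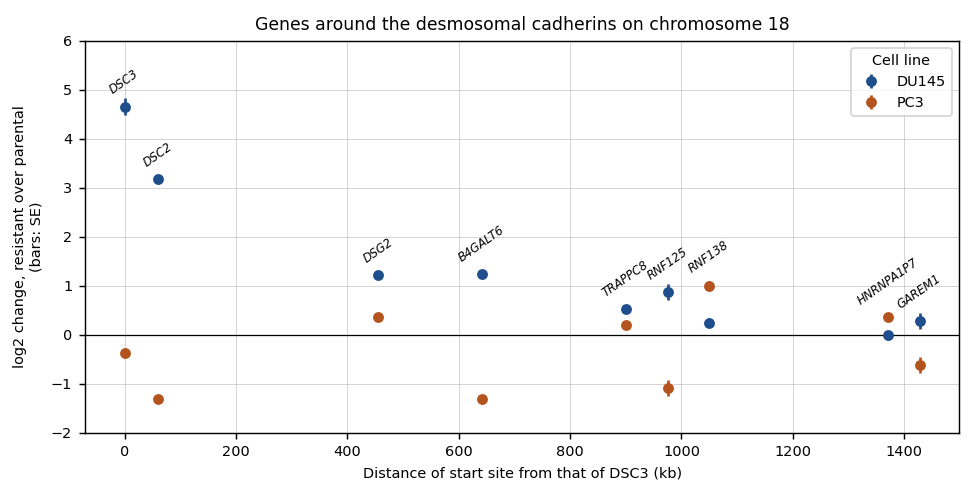
Log2 change, resistant over parental, of genes around the desmosomal cadherins on chromosome 18 with at least 5000 counts in all, by the distance in kb of their start from that of DSC3; DU145 is blue, PC3 orange, bars are SE. DSC3 and DSC2 lie highest in DU145, and B4GALT6 and RNF125 share their opposite signs in the 2 lines.

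The other desmosomal genes that were called in both lines moved the same way in both. The counts of this and the following lists stand against the same 18.9% higher and 20.7% lower of all tested genes in DU145, and 22.4% and 21.6% in PC3. Of 8 listed, 5 were tested, and 1 was called higher and 2 lower in DU145, and 1 higher and 3 lower in PC3. PKP4, a plakophilin relative also found at adherens junctions, fell in both, from 130 ± 5.01 to 86.7 ± 4.83 CPM in DU145 and from 57.6 ± 5.51 to 30.9 ± 1.83 CPM in PC3 (SD, n = 3). Its log2 changes were -0.59 ± 0.07 and -0.90 ± 0.07. PERP, a tetraspan protein of desmosomes, changed by -0.16 ± 0.05 and -0.14 ± 0.05, calls that were weak. The DU145 call was lost without parental library 1 or resistant library 2 (edgeR adjusted p up to 0.0829), and the PC3 call without any 1 of parental libraries 1, 2 and 3 or resistant libraries 1 and 3 (adjusted p up to 0.129). KAZN, which encodes the periplakin partner kazrin, rose by 2.46 ± 0.44 in DU145 and by 3.46 ± 0.47 in PC3, from 1.24 to 6.83 CPM and from 0.425 to 4.71 CPM. KAZN overlaps TMEM51-AS1 on the other strand, with 1285 counts against 2620 for KAZN, so part of its counts is uncertain. The PC3 call of CDSN, the corneodesmosin gene, was lost in 13 of 21 alternatives, its libraries being under 1 CPM on average in every group.

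Some keratins and plakins were called in opposite directions in the 2 lines and others in the same. Of 11 tested genes of intermediate filaments and plakins, 4 were called higher and 3 lower in DU145, and 4 higher and 6 lower in PC3. KRT8 and KRT18, the keratin pair of simple epithelia, rose in DU145 by 0.80 ± 0.04 and 0.97 ± 0.04 on the log2 scale and fell in PC3, with -1.87 ± 0.04 and -0.42 ± 0.04. The 2 genes overlap on opposite strands, so their reads may be shared. PLEC, which encodes plectin, did the reverse, with -1.11 ± 0.04 in DU145 and 0.70 ± 0.04 in PC3. KRT7, which overlaps other keratin genes, rose in PC3 by 2.24 ± 0.04 and changed by 0.02 ± 0.04 in DU145 (edgeR adjusted p = 0.723), a difference between the lines of 2.22 ± 0.05. KRT15 was called in opposite directions too, higher in DU145 and lower in PC3, although limma-voom and log2(FPKM + 1) did not call it in DU145 (adjusted p up to 0.175). VIM, the mesenchymal filament vimentin, fell in both, by 0.21 ± 0.03 and 0.61 ± 0.03, as did KRT19, by 0.31 ± 0.04 and 0.73 ± 0.04, and MACF1, a plakin that links actin and microtubules, rose in both, by 0.45 ± 0.03 and 0.44 ± 0.03.

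In the adherens junction list, 5 of 10 tested genes were called higher and 5 lower in each line. Some of these calls were weak: that of CTNNB1 in DU145, 0.10 ± 0.04, was lost in 11 of 21 alternatives (adjusted p up to 0.164), that of AFDN in PC3, 0.37 ± 0.13, in 9 of 21 (up to 0.145), and that of CDH2 in DU145 in 4 of 21 (up to 0.804). CDH1, the E-cadherin gene, moved in the same directions as DSP: 3.41, 3.43 and 4.60 CPM in parental and 70.1, 75.9 and 77.0 CPM in resistant DU145, and 7.21, 10.6 and 12 CPM in parental and 1.05, 1.58 and 0.454 CPM in resistant PC3. Its log2 changes were 4.29 ± 0.31 and -3.29 ± 0.33. CDH3, P-cadherin, rose in both, by 2.75 ± 0.16 and 2.09 ± 0.18. CTNNA1, the alpha-catenin gene, was at 519 ± 10 CPM in parental DU145 and 2.92 ± 0.55 CPM in parental PC3 (SD, n = 3). EPCAM, an epithelial adhesion gene, was higher in resistant DU145, by 1.40 ± 0.11, and lower in resistant PC3, by -0.44 ± 0.11.

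Hemidesmosomes anchor keratin to the basement membrane. Of 9 of their genes, PLEC included, 3 were called higher and 3 lower in DU145, and 5 higher and 1 lower in PC3. LAMB3, a chain of laminin-332, rose in both, by 2.50 ± 0.05 and 2.83 ± 0.05, and COL17A1 by 0.98 ± 0.15 and 3.11 ± 0.18. LAMA3, another chain of the same laminin, fell in DU145, by 3.14 ± 0.10 on the log2 scale, and changed by -0.20 ± 0.09 in PC3 (edgeR adjusted p = 0.0885).

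Transcription factors that repress or activate epithelial genes were listed, together with the epithelial splicing regulators ESRP1 and ESRP2 among the activators. Of 6 repressors, 2 were called higher and 3 lower in DU145, and 3 higher and 1 lower in PC3. ZEB2 went from 4.74 ± 0.184 to 1.55 ± 0.587 CPM in DU145 and from 0.420 ± 0.137 to 3.92 ± 0.928 CPM in PC3 (SD, n = 3), log2 changes of -1.61 ± 0.34 and 3.22 ± 0.37. ZEB1 changed by -0.31 ± 0.09 and 0.70 ± 0.09, and its DU145 call was lost without parental library 2 or resistant library 3 (edgeR adjusted p up to 0.0652). The difference between the lines was 4.83 ± 0.50 for ZEB2 and 1.01 ± 0.13 for ZEB1. SNAI2 rose in both, by 4.06 ± 0.36 and 3.52 ± 0.28, reaching 3.10 CPM in DU145 and 43.4 CPM in PC3. The SNAI1 call in DU145 was lost without any 1 of parental libraries 1, 2 and 3 or resistant library 3 (adjusted p up to 0.0865). The repressors therefore did not share a direction within a line.

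Of 9 tested activators, 5 were called higher and 2 lower in DU145, and 3 higher and 4 lower in PC3. GRHL1, a grainyhead factor, rose in DU145 by 0.84 ± 0.24 and fell in PC3, with -2.54 ± 0.26, from 8.95 ± 1.60 to 1.54 ± 0.446 CPM (SD, n = 3). Its DU145 call was lost without parental library 1 or resistant library 1 (edgeR adjusted p up to 0.0581). ELF3, an epithelial ETS factor that overlaps ELF3-AS1, rose from 10.6 to 47.9 CPM in DU145 (2.18 ± 0.09) and fell from 32.0 to 19.2 CPM in PC3 (-0.74 ± 0.09). KLF5 went the other way, with -0.36 ± 0.06 and 0.61 ± 0.06, and EHF fell in both, by 3.29 ± 0.42 and 1.3 ± 0.17. ESRP1 rose in both, by 5.17 ± 0.81 and 3.02 ± 0.79. Its levels were low, going from 0.115 to 4.22 CPM in DU145 and from 0.0706 to 0.589 CPM in PC3. GRHL2 was at 0 in all DU145 libraries and at no more than 0.0925 CPM on average in PC3.

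**Figure D5:**
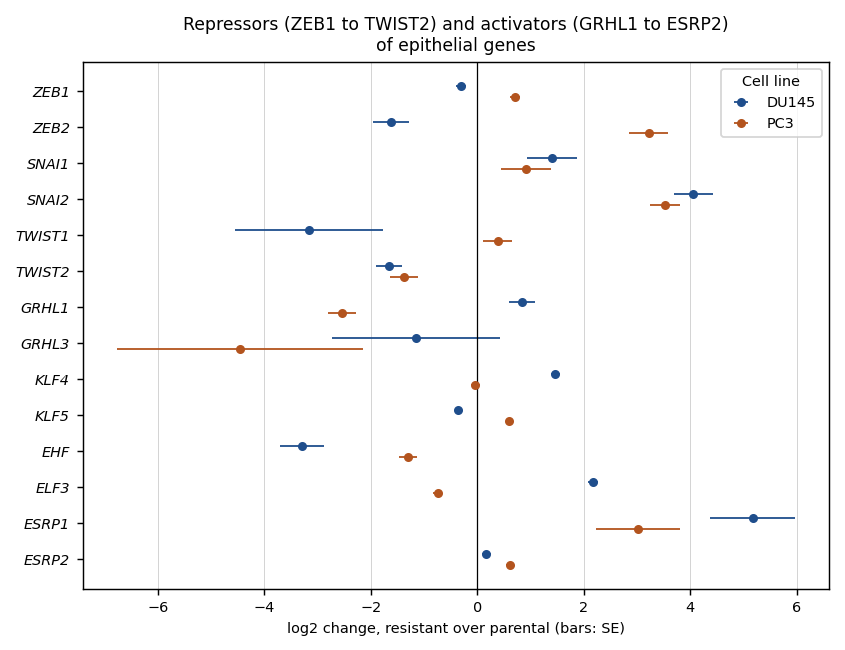
Log2 change, resistant over parental, of listed repressors (ZEB1 to TWIST2) and activators (GRHL1 to ESRP2) of epithelial genes in DU145 (blue) and PC3 (orange); points are edgeR estimates, bars SE. ZEB1 and ZEB2 lie below 0 in DU145 and above it in PC3, and GRHL1 and ELF3 the reverse.

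Genes that cut or regulate desmosomal cadherins were a further list, of 10 genes, with 5 called higher and 4 lower in DU145 and 7 higher and 2 lower in PC3. ADAM17, a sheddase that acts on desmoglein 2, changed by 0.35 ± 0.06 and -0.98 ± 0.06 and overlaps IAH1. ADAM15 changed by -0.80 ± 0.03 and 1.18 ± 0.03. EGFR, whose signalling promotes desmosome disassembly, rose in both, by 1.34 ± 0.04 and 1.37 ± 0.04.

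Markers of other cell types were read beside the members. The keratinocyte and cornified envelope list, of which 8 of 14 genes were in the tables, summed to 69.6 to 84.0 CPM in parental and 64.1 to 71.4 in resistant DU145, and to 39.8 to 43.8 in parental and 28.4 to 34.2 in resistant PC3. FLG and KRT10 made up most of these sums. The 6 fibroblast genes summed to 23.3 to 40.6 CPM in parental and 5.54 to 11.3 in resistant DU145, and to 115 to 124 and 11.99 to 19.5 in PC3. The 5 leukocyte genes did not pass 1.02 CPM in any library. The 4 endothelial genes summed to at most 0.986 CPM in DU145, and to 177 to 232 CPM in parental and 53.7 to 76.6 in resistant PC3, from KDR and PECAM1. In PC3, KDR fell from 178 ± 30.2 to 40.8 ± 8.87 CPM (SD, n = 3), and PECAM1 was called higher, from 18.3 ± 0.769 to 27.3 ± 3.97 CPM (edgeR adjusted p = 0.0274), a call lost without any 1 of parental libraries 1, 2 and 3 or resistant libraries 1 and 2 (adjusted p up to 0.110). No listed gene in the tables was at 0 in every library. None of these sums was higher in resistant DU145 without overlap, and the part of the lower sums of resistant PC3 in the members' changes there was not tested.

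The genes most like each member were named by Pearson's r of log2 CPM over the 12 libraries, among 13446 genes. These libraries fall into only 4 groups, so r describes how alike the 4 levels are and carries no test. DSP was nearest to IER5 (r = 0.991), NFKBIA (0.980) and MRFAP1 (0.979), whose own ranges were narrower: IER5 went from 29.3 to 54.9 CPM in DU145. DSC2 was nearest to NBEA (0.994), DSC3 to COL13A1 (0.999), DSG2 to DPY19L1 (0.998) and PKP1 to EFNB1 (0.999). PKP2 was nearest to ENC1 (0.996) and JUP to SLCO4A1 (0.997). PKP3, PPL and EVPL, whose levels differed least, had weaker best matches, in DHDDS (0.960), LIMK1 (0.906) and ABCB9 (0.869). No member was the nearest gene of another. Among the members, DSC3 and PKP2 were most alike (r = 0.989), followed by DSC2 and JUP (0.959), while DSP had its highest r with DSG2 (0.640).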

How the data were processed

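Gene-level RNA-seq values of 12 libraries were used, from DU145 and PC3, parental and docetaxel-resistant, 3 each. The authors deposited 1 table per library with a whole-number read count and an FPKM value for each of 38611 genes. Per the labels' protocols, mRNA was selected with oligo(dT) and the second strand marked with dUTP. Tools listed in the submitters' processing notes, with no order, were HISAT2 2.0.4, StringTie 1.3.4d, cutadapt 1.9, edgeR and DESeq2. Those notes give hg18 as the build, but gene positions in the files match GRCh38: of 37385 genes shared with a GENCODE table of that build, 37308 overlapped and 23665 had the same start and end. Which annotation and counting program were used, and whether strand was considered, is not given in the sources used here, so genes that overlap others are uncertain.

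The counts were fitted in R 4.3.3 with edgeR 4.0.16 (filterByExpr, TMM, quasi-likelihood F-test), all 4 groups in 1 model with 8 residual degrees of freedom, over 24128 genes, and p-values were adjusted by Benjamini-Hochberg over all of them. The SE of a log2 change was taken as its absolute value over the root of F. On simulated counts with 200 changed genes the fit was tested before use. DESeq2 1.42.0, limma 3.58.1 (voom, and log2 of FPKM plus 1 or 0.1), other scalings, no filter, a fit on the compared groups alone and leaving out each library were alternatives. All members were named. The other genes named were mainly taken from up to 4 called genes a direction of each other list and its defining markers. Further sources were the genes within 1 Mb of the chromosome 18 cadherins and the 3 genes most correlated with each member. Not all genes of these sources are named. The values of 1 listed activator are not reported here. The members and lists were chosen with earlier results of these data known. RefSeq supplied 5' windows of 6 members.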

Additional observations from a re-analysis of the deposited data

Results flagged for a closer look

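The change with resistance differed between the 2 lines, by an edgeR test of the difference itself, for 7 desmosome members and for PKP4. The change in PC3 minus that in DU145, on the log2 scale, was -10.26 for DSP, -5.03 for DSC3, -4.49 for DSC2, -2.55 for JUP, -1.81 for PKP2 and -0.85 for DSG2. It was 0.65 for PKP3. For PKP4, which fell in both lines, it was -0.31 (edgeR adjusted p = 0.0210). The PKP4 difference was not called in 4 of 20 alternatives: with log2(FPKM + 1), and without parental DU145 library 3 or parental PC3 library 2 or 3 (adjusted p up to 0.108, values from -0.39 to -0.19). Of all tested genes, 20% were called lower and 22.1% higher in the same comparison.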

How the results depend on the processing

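Over up to 21 alternatives, the number of members called stayed at 7 in DU145 and between resistant lines, and ranged from 7 to 9 in PC3, from 8 to 9 between parental lines and from 7 to 8 for the difference of changes. With the replicate number as a block the counts were 7, 7, 9, 7 and 7 for DU145, PC3, the parental lines, the resistant lines and the difference, and PPL in PC3 lost its call (edgeR adjusted p = 0.0751). The labels do not say what same-numbered libraries share. Their deviations from the group mean correlated between -0.1015 and 0.0368. Only the PC3 libraries numbered 2 correlated best with their own number. With only 3 libraries in each group mean, these correlations cannot decide whether a culture or day was shared. Signs changed only for values that were near 0 and not called in the reported fit. DSC2 between resistant lines became -0.064 with upper-quartile scaling, which moves the median gene by -0.10 in that comparison, -0.020 with library totals, -0.020 with log2(FPKM + 1) and -0.025 with log2(FPKM + 0.1), and ranged from -0.064 to 0.12 with 1 library left out. The PKP1 difference of changes became 0.42 with log2(FPKM + 1), where it was called (limma adjusted p = 0.00656), and 0.025 with log2(FPKM + 0.1), and ranged from -0.21 to 0.14 with 1 library left out. EVPL in DU145 became 0.010 with upper-quartile scaling and ranged from -0.055 to 0.023 with 1 library left out. With 1 left out, PPL ranged from -0.096 to 0.037 in DU145 and from -0.14 to 0.0090 between resistant lines. Over all alternatives, DSP in DU145 ranged from 3.86 to 8.27 and DSC3 from 1.18 to 4.92. The low ends came with log2(FPKM + 1), whose pseudocount shrank the changes of low genes by its construction. Counts of 16 to 85 in parental DU145 limit the precision of both.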
